A study of Mus musculus with 10 samples.

Results

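Gene desert regions were the regions of open chromatin that lay more than 100 kb from the span of every protein-coding gene of GRCm38. They numbered 4352 of the 77076 regions in the count table, or 5.65% of the 77023 regions on named chromosomes. Each was given the name of the nearest protein-coding gene and its distance to the nearer end of that gene's span, which is a position and not a shown target. Choice by position used no count. However, only regions found to be open chromatin are in the table, and how they were merged across libraries is not given. Levels and group differences of these regions may depend on that step.

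The assay was ATAC-seq, which uses a transposase to cut and tag DNA that is not packed into nucleosomes, so that open chromatin gives more reads. Regulatory T (Treg) cells, which restrain immune responses, came from mouse spleen and lymph nodes. They were sorted from mixed bone marrow chimeras, in which transplanted marrow of different origin gives rise to the blood cells. The 4 groups were wild-type (WT) central Treg cells (cTreg, 3 libraries), WT effector Treg cells (eTreg, 3 libraries), and cTreg and eTreg cells deficient in Fntb (FntbKO, 2 libraries each). Fntb provides a subunit of farnesyltransferase, an enzyme that adds a lipid anchor to RAS proteins, lamins and others. Every group came from chimeras, so WT cells too had developed in a reconstituted host. The labels do not give the age of the animals, the deleted part of Fntb, any Cre driver, whether cells were pooled, or whether the libraries of a group came from separate animals. The p-values therefore measure only the spread between these samples, which may be technical.

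Gene deserts are long stretches of the genome without protein-coding genes. Many flank genes for transcription factors or signalling proteins, and they can hold enhancers, short sequences that bind transcription factors and act on a promoter far away through looping of the chromatin fibre. They also carry genes for long noncoding RNAs and, where annotations do not count receptor segments as protein-coding genes, the antigen receptor loci of lymphocytes. In T cells, distal elements of this kind are known to act on genes such as Myc and Gata3.

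The total counts of the libraries lay between 5058328 and 15328775. Counts were scaled by the trimmed mean of M values (TMM) and are given as CPM, the count per 1e+06 scaled counts of the library. Over all tested regions the first principal component separated most eTreg from cTreg libraries. However, WT cTreg 2 lay toward the eTreg side (9.0, against -56.7 and -38.1 for the other WT cTreg libraries), above FntbKO eTreg 1 (0.7). FntbKO cTreg 1 lay at the far cTreg end (-155.3, against -67.1 for FntbKO cTreg 2). Results without WT cTreg 2 and FntbKO cTreg 1 are given beside the counts below. The region at the start of Fntb (chr12:76837192-76837915), which is not a gene desert region, had 29.2 to 36.9 CPM in the WT and 7.48 to 13.1 CPM in the FntbKO libraries. Regions of 7 of 8 Treg and CD4 T cell markers summed to 876 to 972 CPM in the WT and 977 to 1040 in the FntbKO libraries. Marker sums of some other cell types also differed with genotype. CD8 T or NK cell markers (5 of 6 genes with regions) summed to 48.5 to 53.0 CPM in WT cTreg, 54.0 to 57.3 in WT eTreg, 44.9 to 46.6 in FntbKO cTreg and 41.3 to 49.8 in FntbKO eTreg. Myeloid markers (4 of 6, none at Lyz2 or Csf1r) summed to 51.5 to 66.2, 65.3 to 69.6, 47.6 to 49.0 and 54.7 to 57.8 in the same order. In both lists the FntbKO libraries lay below the WT libraries of the same subset. Dendritic markers (231 to 320 CPM) overlapped between the genotypes in cTreg and were lower in FntbKO eTreg, and erythroid markers (24.5 to 35.8 CPM) overlapped in eTreg and were lower in FntbKO cTreg. B cell markers are given beside the immunoglobulin locus. The part of these markers in the genotype results below was not tested.

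A small share of the regions coincided with the promoter of a long noncoding RNA, and these are the only ones whose sequence is printed here. In the RefSeq table of promoters (GRCm38.p6, 300 bases from 250 before to 50 after a gene's start), 94 windows of 84 noncoding genes overlapped 83 gene desert regions, 1.91% of all 4352. The 5 windows below are shown because their regions were either among the most accessible (Gm26901, Dubr) or differed among the groups (Gm19585, Ifngas1, Gm29998, the first pair of which had higher mean CPM in eTreg than in cTreg of both genotypes). They were chosen after their values were seen. Each is written 5′ to 3′ on the strand of its gene, and capitals mark a match to a searched motif.
Gm26901, chr1:7398047-7398346, minus strand: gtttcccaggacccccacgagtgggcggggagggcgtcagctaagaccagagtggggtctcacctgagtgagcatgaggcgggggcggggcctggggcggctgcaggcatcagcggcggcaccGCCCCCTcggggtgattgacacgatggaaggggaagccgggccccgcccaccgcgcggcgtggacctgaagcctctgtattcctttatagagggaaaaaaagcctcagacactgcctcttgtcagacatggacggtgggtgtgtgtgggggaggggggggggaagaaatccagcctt
Dubr, chr16:50732724-50733023, minus strand: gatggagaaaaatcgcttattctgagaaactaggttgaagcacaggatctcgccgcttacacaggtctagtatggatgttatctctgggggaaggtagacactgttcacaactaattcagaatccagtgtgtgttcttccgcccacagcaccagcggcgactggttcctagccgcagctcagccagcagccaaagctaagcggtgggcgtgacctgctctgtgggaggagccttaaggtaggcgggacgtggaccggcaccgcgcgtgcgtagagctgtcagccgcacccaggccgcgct
Gm19585, chr17:52149039-52149338, plus strand: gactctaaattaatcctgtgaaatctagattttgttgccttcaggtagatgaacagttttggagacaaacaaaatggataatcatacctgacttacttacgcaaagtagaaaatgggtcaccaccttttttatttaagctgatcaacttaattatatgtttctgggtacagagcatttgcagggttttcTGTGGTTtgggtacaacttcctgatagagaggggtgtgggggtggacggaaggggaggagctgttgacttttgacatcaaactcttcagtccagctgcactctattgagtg
Ifngas1, chr10:118556476-118556775, minus strand: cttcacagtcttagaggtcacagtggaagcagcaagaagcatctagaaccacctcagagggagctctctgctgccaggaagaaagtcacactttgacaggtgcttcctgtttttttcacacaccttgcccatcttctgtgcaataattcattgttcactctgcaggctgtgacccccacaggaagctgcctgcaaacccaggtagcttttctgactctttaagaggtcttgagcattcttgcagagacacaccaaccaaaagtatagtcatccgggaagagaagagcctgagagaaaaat
Gm29998, chr19:33391551-33391850, plus strand: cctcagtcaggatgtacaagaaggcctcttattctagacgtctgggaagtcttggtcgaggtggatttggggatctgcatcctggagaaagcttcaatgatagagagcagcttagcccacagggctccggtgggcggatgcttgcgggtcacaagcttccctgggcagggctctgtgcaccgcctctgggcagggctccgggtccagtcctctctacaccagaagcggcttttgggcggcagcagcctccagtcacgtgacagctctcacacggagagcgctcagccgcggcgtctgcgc

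Exact matches were searched on both strands for 6 motifs, TGANTCA (AP-1), CCGGAAG (ETS), TGTGGTT (RUNX), CTTTGAT (TCF/LEF), GTAAACA (forkhead) and AGGGGGC (the core of the CTCF motif). None of the motifs contains another. The Gm26901 window held the CTCF core on the opposite strand and the Gm19585 window held the RUNX motif. No match was found in the windows of Dubr, Ifngas1 and Gm29998, which says only that these letters are not in them. Of the 94 windows, 17 held the AP-1 motif, 4 ETS, 15 RUNX, 7 TCF/LEF, 3 forkhead and 10 the CTCF core. Among all 32851 windows of the table the shares were 7.81%, 8.86%, 5.27%, 3.73%, 3.65% and 10.6% in the same order. The 94 were all windows of noncoding genes that overlapped an open region. The whole table was not chosen in this way, so the sets were not matched. A match is a description and not a shown binding site.

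The regions behind these sequences differed widely in level. The region at Gm26901 (chr1:7397533-7398479, nearest protein-coding gene Pcmtd1) had 191, 139 and 157 CPM in WT cTreg, 181, 149 and 152 in WT eTreg, 196 and 168 in FntbKO cTreg and 186 and 155 in FntbKO eTreg. All 4 groups overlapped. At Ifngas1, an antisense RNA gene beside the interferon-γ gene Ifng (110.6 kb away), the region had 0.838, 2.06 and 2.54 CPM in WT cTreg, 4.34, 4.58 and 4.07 in WT eTreg, 0.821 and 1.69 in FntbKO cTreg and 2.80 and 3.35 in FntbKO eTreg. Within each genotype the eTreg libraries lay above the cTreg libraries, and a difference among the 4 groups passed the test (edgeR F test, adjusted p = 0.0355). The Gm19585 region, in the desert between Satb1 and Kcnh8, had 14.2, 15.1 and 16.6 CPM in WT cTreg, 23.4, 19.2 and 23.1 in WT eTreg, 12.9 and 13.5 in FntbKO cTreg and 18.2 and 18.1 in FntbKO eTreg. It too differed among the groups (adjusted p = 0.0239), with both eTreg groups above both cTreg groups.

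The regions lay a median of 181 kb from the nearest protein-coding gene, and the middle 50% lay between 132 and 282 kb. Of all 4352, 1828 lay beyond 200 kb, 397 beyond 500 kb and 64 beyond 1 Mb. The farthest lay 1962 kb from Celf4. They fell into 686 intervals between protein-coding genes, called deserts here, and had 899 different nearest genes. Clustering was common: 126 deserts with 10 or more of the regions held 2864 of them. Chromosome 12 had the highest share of its regions in deserts (12.1%) and chromosome 11 the lowest (1.5%). The distance limit cut through a continuous range, since the 458 regions at 90 to 100 kb had a median of 3.39 CPM and the 406 at 100 to 110 kb 3.36.

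Distance from protein-coding genes did not mean distance from all genes. Of the 4352 regions, 1386 (31.8%) lay inside another kind of gene, 1161 of them in long noncoding RNA genes and 190 in antigen receptor loci. In all, 389 regions (8.94%) had no gene of any type within 100 kb. The immunoglobulin heavy chain locus Igh held 112 regions and the T cell receptor α locus Tcra 57. Then came the noncoding genes 2610307P16Rik in the Sox4 desert with 37, Morrbid with 27, Firre with 26, and Lncpint and Pvt1 with 22 each.

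By desert, the interval from Adam6a to Zfp386, in the immunoglobulin heavy chain locus, held 111 regions. The desert from Myc, a transcription factor of cell growth, to Gsdmc held 75, 22 of them inside Pvt1. The desert from Celf2 to Gata3, the transcription factor of type 2 helper T cells, held 60. The interval around Tcra held 57, and the desert from Id2, an inhibitor of E proteins, to Rnf144a held 55. Of the 75 regions of the Myc desert, 72 were tested. None was called in a pairwise comparison, and 5 (6.94%) were called by the test for any difference among the groups. Over all tested regions, at most 3.44% were called in a pairwise comparison and 11.0% for any difference.

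Gene desert regions were less accessible than regions near genes. Their median level was 3.30 CPM, against 5.01 for all regions on named chromosomes, 5.90 inside protein-coding genes, 4.46 within 10 kb of one and 3.90 at 10 to 100 kb. They were slightly narrower (median width 337 against 352 bp), and per kb of width the median was 9.13 against 13.3 CPM. Together they held 3.32% of the counts on 5.02% of the covered bases. Above 50 CPM there were 83 of them (1.91%), against 5.73% of all regions. The level did not fall steadily with distance, with medians of 3.4 CPM at 100 to 150 kb, 4.05 in the next class, then 3.05, 2.9 and 2.62, and 3.30 beyond 1 Mb.

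The share of counts in gene desert regions was similar in the 4 groups. It was 3.35% ± 0.034 (SD, n = 3) in WT cTreg, 3.23% ± 0.069 (n = 3) in WT eTreg, 3.38% ± 0.036 (n = 2) in FntbKO cTreg and 3.31% ± 0.023 (n = 2) in FntbKO eTreg. In both genotypes the eTreg mean was the lower, and the highest WT eTreg library (3.302%) lay just below the lowest WT cTreg library (3.310%).

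The most accessible gene desert regions were open in every library. The highest lay in the desert before Btg1, an antiproliferative gene (chr10:96370681-96371442), with 200, 174 and 178 CPM in WT cTreg, 171, 160 and 167 in WT eTreg, 203 and 170 in FntbKO cTreg and 164 and 162 in FntbKO eTreg. A region 339.9 kb from Cblb, a ubiquitin ligase that restrains T cell activation (chr16:51690653-51691373), had 138, 125 and 130 CPM in WT cTreg, 115, 116 and 117 in WT eTreg, 143 and 130 in FntbKO cTreg and 138 and 126 in FntbKO eTreg. The Cblb region did not pass the test among the 4 groups (edgeR F test, adjusted p = 0.251), although its 3 WT eTreg libraries were lower than all others. The Dubr region had between 63 and 95.4 CPM, with groups that overlapped (adjusted p = 0.686). High levels also occurred far from genes, as in a region 1411.5 kb from Cntnap5b with a mean of 34.0 CPM.

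Between libraries of 1 group, gene desert regions varied more than others. The median within-group SD of log2-CPM was 0.419, against 0.331 for the other tested regions. Both were also set in 4 classes of level, bounded so that each held 1065 or 1066 gene desert regions. The values were 0.650 against 0.639 in the lowest class, 0.484 against 0.476, 0.377 against 0.346, and 0.226 against 0.183 in the highest. The range of the 4 group means had a median of 0.854 on the log2 scale for gene desert regions and 0.632 for the others, and 0.546 against 0.367 in the highest class. That class has no upper bound and was not matched for level, with a median of 3.89 log2-CPM against 4.26.

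A difference among the 4 groups was called for 672 of the 4262 gene desert regions that passed the filter on low counts, or 15.8%. Over all 76216 tested regions the share was 11.0%. With both WT cTreg 2 and FntbKO cTreg 1 left out, 455 were called, or 10.6%, against 7.24% of all regions. In the lowest class of level the shares were 7.13% of gene desert regions and 6.16% of other regions, and in the highest class 28.7% and 14.3%. Beyond 100 kb the share had no order with distance, and lay between 13.9% and 18.0% in 6 distance classes. These shares describe the regions called and were not tested against each other.

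**Figure D1:**
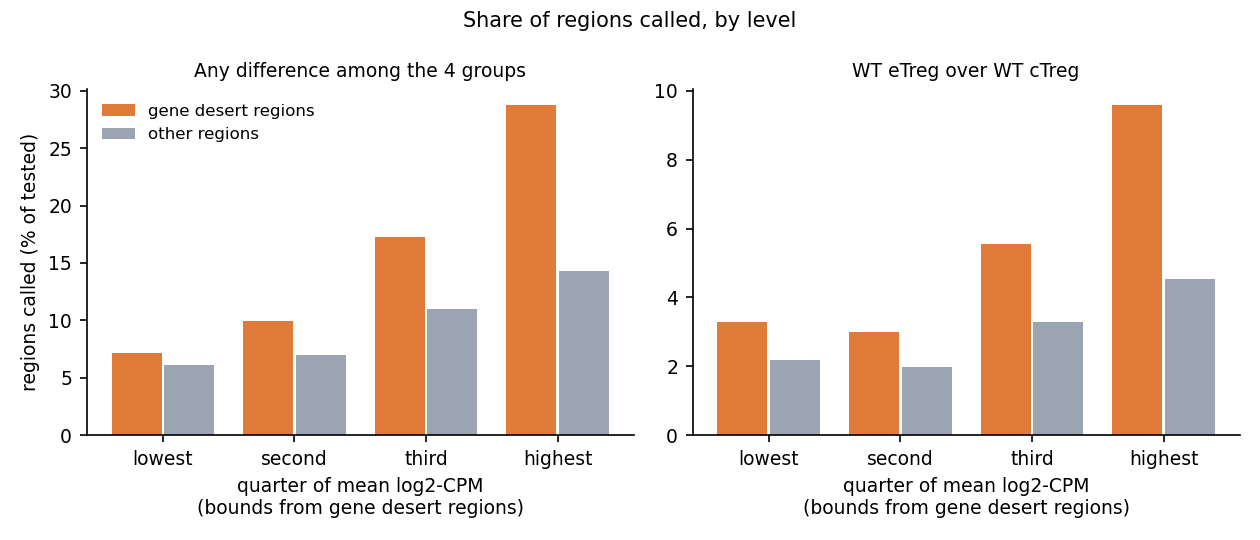
Percent of tested regions called (edgeR, adjusted p under 0.05) in 4 classes of mean log2-CPM, for gene desert regions (orange) and all other regions (grey); left, any difference among the 4 groups, right, WT eTreg over WT cTreg. In the highest class 28.7% of gene desert and 14.3% of other regions were called on the left, and 9.57% and 4.52% on the right.

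Setting WT eTreg against WT cTreg asks which distal chromatin differs between the subsets when Fntb is present. Of the gene desert regions tested, 118 were higher and 110 lower in eTreg, together 228 or 5.35%. Over all tested regions 3.44% were called, 1.83% higher and 1.61% lower. The median log2 fold change of all tested gene desert regions was -0.06, and -0.01 over all regions. The rises were larger, with a median log2 fold of 1.42 among the higher and -0.95 among the lower regions. In 220 of the 228 called regions the compared groups did not overlap. The same held for all calls of the other pairwise comparisons, so lack of overlap adds little to a call. Single libraries moved this count: leaving out WT cTreg 3 gave 31 calls, WT eTreg 3 gave 46, WT cTreg 1 gave 55 and WT eTreg 1 gave 63. Leaving out both WT cTreg 2 and FntbKO cTreg 1 gave 348. Of the regions named for this comparison, those of Rgs1, Smim20, Rbpj, Prep, Klf14, Col22a1, Rapgef5, Gadd45g and Csmd3 kept the call in each of 10 fits that left out 1 library. The calls at Ccnd2 and Hlx were each lost in 1 of the 10, that without WT cTreg 3. All others named were lost without WT cTreg 3 or WT eTreg 3, or both, and many also without WT cTreg 1 or WT eTreg 1.

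Rises in WT eTreg included regions in the deserts of Rgs1 and Prdm1. The region with the smallest adjusted p lay 106 kb from Rgs1, which dampens signalling of chemokine receptors (chr1:144355560-144356382). It had 8.24, 13.4 and 9.72 CPM in WT cTreg and 24.3, 28.1 and 25.8 in WT eTreg, without overlap. The log2 fold was 1.33 (SE 0.19, edgeR adjusted p = 0.000578). In the desert between Prdm1, which encodes the transcription factor Blimp-1 of effector lymphocytes, and Prep, a peptidase gene, a region at chr10:44821540-44822146 had 23.5, 26.5 and 25.6 CPM in WT cTreg and 48.5, 41.1 and 56.7 in WT eTreg. All 3 eTreg libraries were above all cTreg libraries, with a log2 fold change of 0.95 ± 0.15 (SE; adjusted p = 0.00121). Nearer to Prdm1 in the same desert, a weaker region (chr10:44700187-44700573) rose by 1.82 (SE 0.41, adjusted p = 0.0144).

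The desert between Smim20 and Rbpj, the DNA-binding factor of Notch signalling, had positive subset folds throughout. Its 11 tested regions all had a positive log2 fold in WT, with a median of 0.67, and 4 were called higher. Among all tested regions the median was -0.01 and 1.83% were called higher. The region 115 kb from Smim20 (chr5:53393493-53394080) had 2.23, 3.79 and 4.65 CPM in WT cTreg and 9.28, 15.2 and 12.6 in WT eTreg, which gave a log2 fold change of 1.78 ± 0.28 (SE; adjusted p = 0.00119). The region 125 kb from Rbpj (chr5:53430067-53430537) had 6.98, 6.88 and 5.28 CPM in WT cTreg and 18.6, 13.3 and 19.3 in WT eTreg, which gave a log2 fold change of 1.42 ± 0.23 (SE; adjusted p = 0.00144). Neither pair of groups overlapped. This desert was chosen for display after its values were seen.

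Other rises lay beside a transcription factor gene, a collagen gene and a chemokine receptor gene. A region 113 kb from Klf14 (chr6:31072077-31072810) had 4.47, 7.40 and 5.39 CPM in WT cTreg and 10.2, 20.9 and 20.9 in WT eTreg, and rose by 1.60 (SE 0.28, adjusted p = 0.00284). Regions beside Col22a1, a collagen gene (1.66, SE 0.28, adjusted p = 0.00183), and Hlx, a homeobox factor expressed in type 1 helper T cells (1.54, SE 0.30, adjusted p = 0.00577), also rose. So did regions 239 kb from Cxcr4, the receptor for the chemokine CXCL12 (1.53, SE 0.37, adjusted p = 0.0209), and 216 kb from Dusp4, a phosphatase of MAP kinases (1.54, SE 0.36, adjusted p = 0.0189). Further rises by the same rule were in regions of Ext1 (1.55), Xylt1 (1.76), Zfp365 (1.53) and Cdc73 (1.44), all called. Ext1 and Xylt1 encode enzymes that build proteoglycan chains.

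Falls in WT eTreg included regions in the deserts of Gadd45g and Btg1. A region 252 kb from Gadd45g, a stress-response gene (chr13:52100069-52100537), had 20.9, 12.4 and 15.4 CPM in WT cTreg and 6.75, 7.37 and 4.07 in WT eTreg, which gave a log2 fold change of -1.39 ± 0.23 (SE; adjusted p = 0.00184). In the Btg1 desert a region 210 kb from the gene (chr10:96406346-96406604) had 6.98, 6.19 and 8.66 CPM in WT cTreg and 3.37, 2.59 and 1.70 in WT eTreg, which gave a log2 fold change of -1.49 ± 0.32 (SE; adjusted p = 0.0104). The groups did not overlap in either region. The largest fall among the named lists was 879 kb from Csmd3, a gene best known in the nervous system, with -2.38 (SE 0.47, adjusted p = 0.00579) at 4.01 to 7.12 CPM in WT cTreg. A region 118 kb from Ccnd2, the cell cycle gene of cyclin D2 (chr6:127270603-127271577), fell by 0.93 (SE 0.17, adjusted p = 0.004). Regions of the calcineurin subunit gene Ppp3ca moved both ways within its desert, with log2 folds of -1.34 (adjusted p = 0.0221) and 1.28 (adjusted p = 0.0399).

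The desert before Sox4, an HMG-box factor of early lymphocyte development, held a run of falls and was chosen for display after its values were seen. Of its 46 regions 37 lie in the noncoding gene 2610307P16Rik. In WT, 42 of 45 tested regions had a negative log2 fold, with a median of -0.57. Of these, 7 were called lower, 6 of them nearest to Sox4 and 1 nearest to Prl5a1 at the other end. Among all tested regions the median was -0.01 and 1.61% were called lower. The region 214 kb from Sox4 (chr13:28734936-28735307) had 7.82, 8.26 and 10.9 CPM in WT cTreg and 3.37, 4.78 and 2.71 in WT eTreg, which gave a log2 fold change of -1.28 ± 0.27 (SE; adjusted p = 0.00818). At 228 kb (chr13:28720113-28720572) the levels were 17.3, 16.9 and 25.1 CPM against 11.1, 11.6 and 8.48, which gave a log2 fold change of -0.93 ± 0.19 (SE; adjusted p = 0.00848). In both, every eTreg library was below every cTreg library. Between the genotypes no region of this desert was called, and the median log2 fold of FntbKO over WT was 0.26 in cTreg and 0.18 in eTreg.

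**Figure D2:**
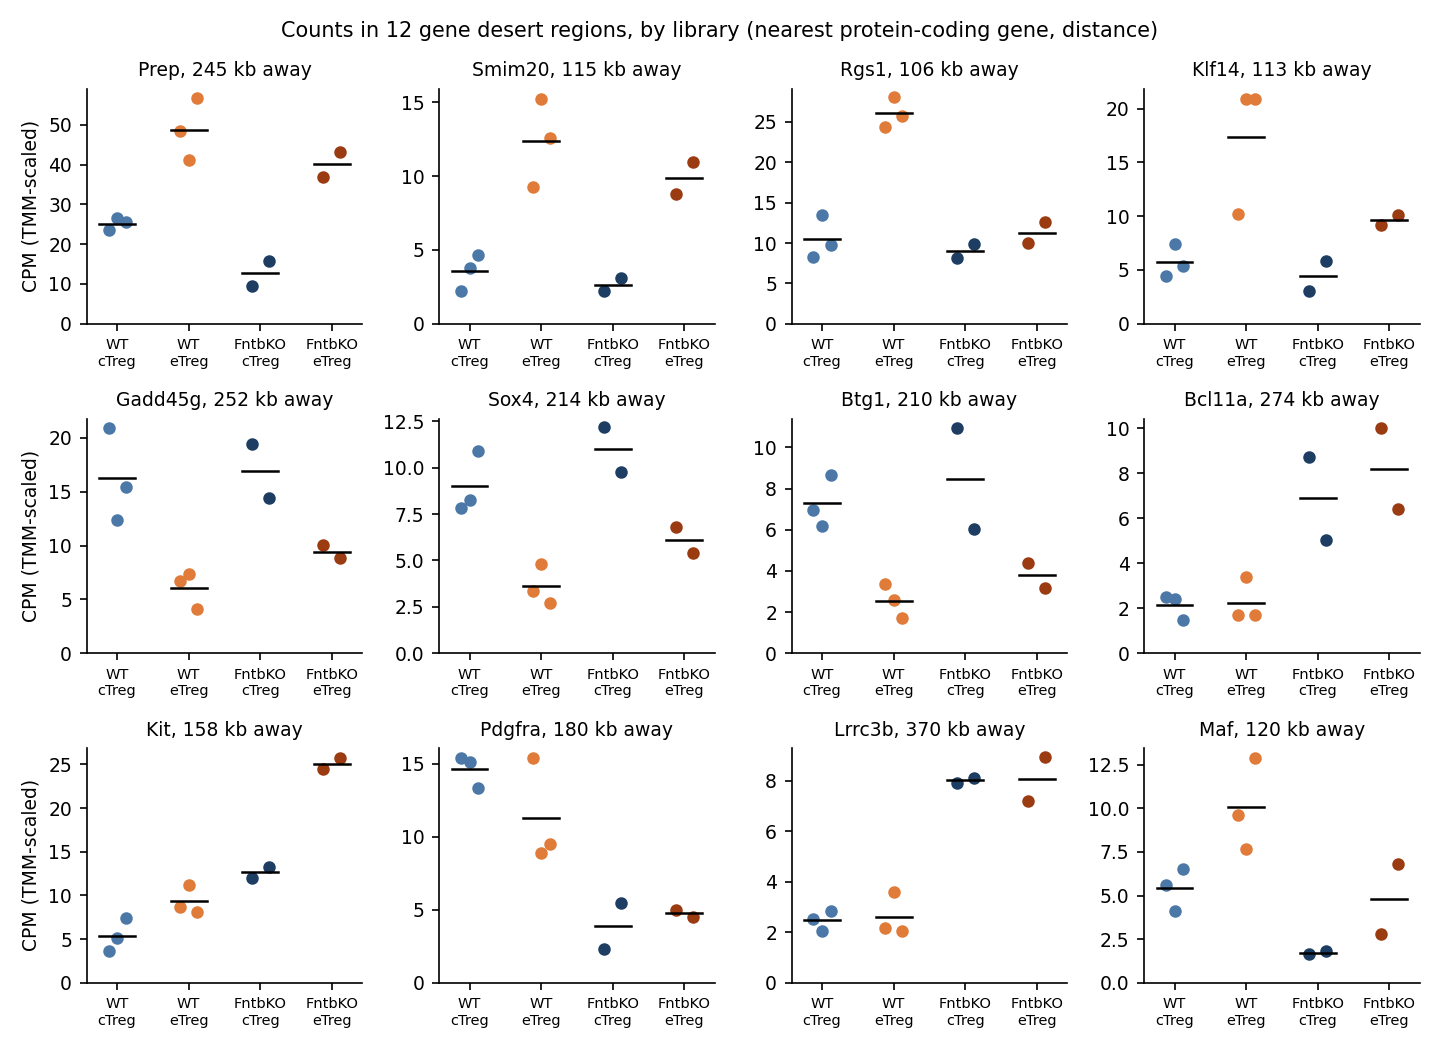
TMM-scaled CPM of 12 gene desert regions in each library (points) of the 4 groups, with the group mean as a bar; titles give the nearest protein-coding gene and the distance to it. The Prep, Smim20, Rgs1 and Klf14 regions were higher in WT eTreg than WT cTreg, the Gadd45g, Sox4 and Btg1 regions lower, and the Bcl11a, Kit, Pdgfra, Lrrc3b and Maf regions differed between the genotypes in cTreg.

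Grouped by nearest gene, calls in regions nearest to a few central and identity genes were mainly lower in WT eTreg. Of 106 tested regions nearest to central Treg and naive T cell genes (8 nearest genes), 1 was higher and 6 were lower (median log2 fold -0.15). They included regions beside Satb1, a chromatin organiser of T cells (-1.0, adjusted p = 0.0339), and Bcl11b, a T cell commitment factor (-0.94, adjusted p = 0.0311). The desert of Foxo1, a transcription factor of quiescent T cells, held both directions. Its region at 108 kb (chr3:52457954-52459108) had 73.7, 63.5 and 73.1 CPM in WT cTreg and 47.2, 54.6 and 55.7 in WT eTreg, and fell by 0.42 (SE 0.10, adjusted p = 0.0208). The region at 148 kb rose by 0.90 (SE 0.22, adjusted p = 0.0234). Treg identity genes, with only 3 nearest genes, had 0 higher and 6 lower of 64 (median -0.27). Among the lower were 2 regions beside Runx1, which pairs with FOXP3 (-1.02, adjusted p = 0.0323, and -0.80, adjusted p = 0.0248). Regions beside Nrp1 (-0.82, adjusted p = 0.0346) and Cblb (-0.79, adjusted p = 0.0232) fell too. In the desert of Nrp1, a region nearest to Pard3 at its other end rose (1.26, adjusted p = 0.0171).

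Effector Treg genes had 6 regions higher and 6 lower of 307 tested, with a median log2 fold of -0.04. The higher ones named by rule were those of Rgs1, Prdm1 and Dusp4 above and a region 121 kb from Id2 (0.92, SE 0.22, adjusted p = 0.0171). The lower ones, named after their values were seen, were nearest to 3 genes. Beside Icos 2 regions fell (-0.97, adjusted p = 0.0476, and -0.38, adjusted p = 0.0439), and beside Dusp6 1 fell (-0.76, adjusted p = 0.0464). The other 3 were the lower calls of the Celf2 to Gata3 desert, with log2 folds of -1.01 to -0.50. Developmental transcription factors, whose genes often border deserts, had 1 higher and 13 lower of 202 (median -0.24), and 6 of the lower were nearest to Sox4. The lists overlap. Gata3 and Prdm1 are on both the effector and the developmental list, and Satb1 and Bcl11b on both the central and the developmental list. Regions nearest to them are counted in both lists, here and below. Neural adhesion and synapse genes had 2 higher and 6 lower of 119 (median -0.10). Regions nearest to olfactory and other clustered receptor genes, 34 in all beside 4 genes, had none called. The highest of them, at 46.8 CPM, was the highest region of the noncoding gene Firre, which is described below. Against these, 1.83% of all regions were called higher and 1.61% lower, and the median over all was -0.01.

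Calls were spread over many deserts. In WT, 145 deserts held at least 1 call and 45 of them held 2 or more. Of the 45, 18 held higher calls, 17 lower calls and 10 both. Lower calls alone were found in the deserts of Satb1 to Kcnh8 (4 calls), Celf2 to Gata3 (3), Runx1 to Setd4 (3), Nrip1 to Usp25 (3) and Gadd45g to Diras2 (3). Higher calls alone were found in those of Klf14 to Mkln1 (3), Ado to Zfp365 (3), Prdm1 to Prep (2) and Cxcr4 to Thsd7b (2). The deserts of Foxo1 to Cog6 (1 higher and 3 lower) and Eea1 to Btg1 (2 higher and 4 lower) were among those with both. These were picked after their values were seen. Where the nearest gene had regions of its own within 10 kb or inside it, 40 of 103 lower gene desert regions (38.8%) had a gene with a region also called lower, and 16 (15.5%) had a gene with a region called higher. For gene desert regions not called the shares were 18.3% and 8.78%. The 103 regions share 67 nearest genes. Of 104 higher regions, 10 (9.62%) had a gene with a region called higher, and 10 had one with a region called lower.

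In FntbKO cells the same subset comparison gave 98 calls, 69 higher and 29 lower in eTreg. This was 2.30% of the gene desert regions tested, against 1.36% of all regions (0.966% higher and 0.39% lower). The median log2 fold was -0.03, and 0.00 over all regions. Leaving out 1 FntbKO library leaves 1 in its group, and the spread then comes from the other groups. The count was 1 without FntbKO cTreg 1 or without FntbKO eTreg 2, 22 without FntbKO eTreg 1, 207 without FntbKO cTreg 2, and 3 without WT cTreg 2 and FntbKO cTreg 1 together. The Prep region was the only call kept in each of the 10 fits with 1 library left out. All other calls named here were lost without FntbKO cTreg 1 and without FntbKO eTreg 2.

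The Prep region had 9.57 and 15.8 CPM in FntbKO cTreg and 36.9 and 43.3 in FntbKO eTreg, which gave a log2 fold change of 1.62 ± 0.19 (SE; adjusted p = 0.000297). A second region on the Prdm1 side of that desert (chr10:44704219-44704525) rose by 1.85 (SE 0.46, adjusted p = 0.0413). The Smim20 region had 2.19 and 3.11 CPM in FntbKO cTreg and 8.82 and 10.9 in FntbKO eTreg and rose by 1.86 (SE 0.34, adjusted p = 0.00804). The Rbpj region rose by 1.18 (SE 0.30, adjusted p = 0.0441), and all 11 regions of their desert had a positive log2 fold (median 0.79). Other rises included Dhx35 at 276 kb (2.04, SE 0.32, adjusted p = 0.00675), Man1a, a mannosidase gene, at 178 kb (1.16, SE 0.18, adjusted p = 0.00322; chosen after its value was seen), Klhl25 (1.90, SE 0.34, adjusted p = 0.00722) and Hlx (2.00, SE 0.39, adjusted p = 0.0104).

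Among falls in FntbKO, a region 164 kb from Nrip1, a nuclear receptor corepressor gene (chr16:76537900-76538235), had 9.57 and 7.39 CPM in cTreg and 2.00 and 1.57 in eTreg. It fell by 2.26 (SE 0.39, adjusted p = 0.0057), and in WT by 1.26 (SE 0.31, adjusted p = 0.0239). In the Satb1 to Kcnh8 desert a region fell by 1.86 (SE 0.36, adjusted p = 0.0106). A region 228 kb from Nfkbiz, an inducible regulator of NF-κB (chr16:55582915-55583474), had 37.7 and 29.4 CPM in cTreg and 12 and 17.3 in eTreg, and fell by 1.15 (SE 0.22, adjusted p = 0.0102). The Sox4 desert had 39 of 45 negative log2 folds, with a median of -0.58 and 2 lower calls, where 0.39% of all tested regions were called lower.

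By list in FntbKO, effector Treg genes had 5 regions higher and 2 lower of 307, and developmental transcription factors 2 and 2 of 202. The rises included a region 987 kb from Gata3 (2.17, SE 0.47, adjusted p = 0.0185), which had 1.09 and 1.10 CPM in cTreg and 5.81 and 4.33 in eTreg. In WT this region had 2.23 to 3.10 CPM in cTreg and 2.38 to 3.39 in eTreg, and those groups overlapped. Central Treg genes had none called of 106, identity genes 0 and 1 of 64, and neural genes 1 and 1 of 119. Over all regions 0.966% were called higher and 0.39% lower.

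The WT and FntbKO subset comparisons share no library, so their calls can be set side by side. The labels do not say whether libraries of different groups came from the same animals. Of 118 regions higher in WT eTreg, 112 (94.9%) also had a positive log2 fold in FntbKO, and 22 were called higher there. These 22 are 18.6% of the WT list and 31.9% of the 69 in FntbKO. Of 110 lower in WT, 107 (97.3%) had a negative log2 fold in FntbKO and 10 were called, which is 9.09% of the WT list and 34.5% of the 29 in FntbKO. No region was called in opposite directions. The shares over all tested regions were close to these: of those higher in WT, 95.8% had the same sign in FntbKO and 19.2% were called in both, and of those lower, 94.9% and 10.8%.

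**Figure D3:**
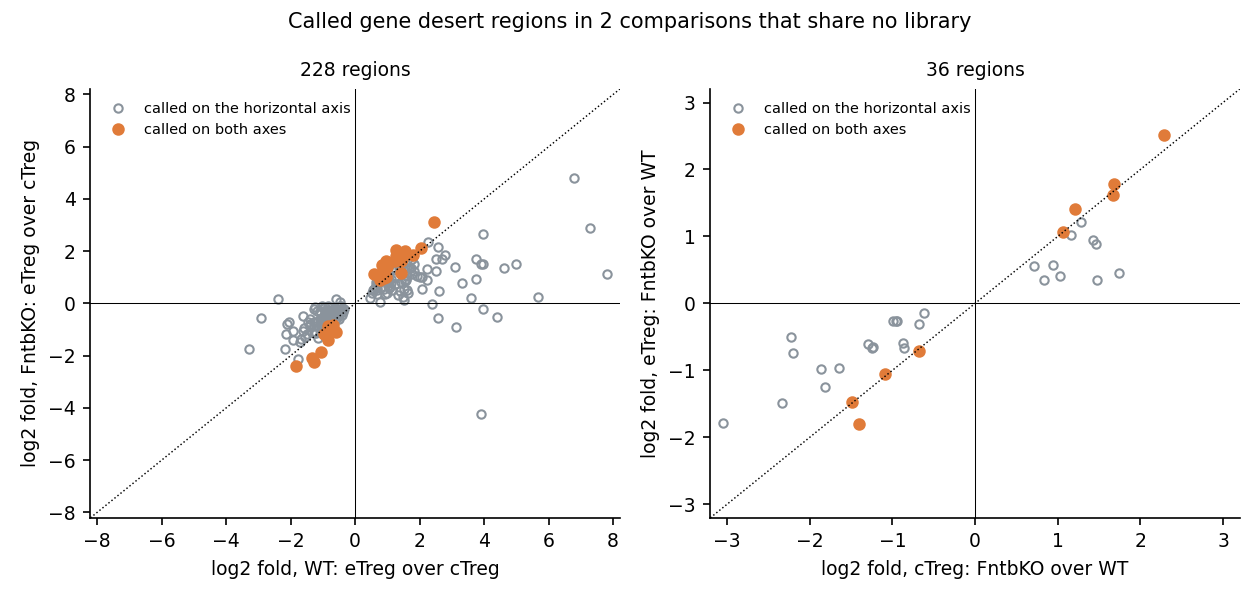
Log2 fold changes of called gene desert regions in pairs of comparisons without shared libraries; left, 228 regions called in WT eTreg over WT cTreg, against the same subset comparison in FntbKO; right, 36 regions called in FntbKO cTreg over WT cTreg, against the genotype comparison in eTreg. Filled points were called on both axes, and 112 of the 118 regions higher in WT lie above the horizontal zero line on the left.

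The comparison of FntbKO with WT cTreg asks which distal chromatin differs with Fntb deficiency in central cells. Of the gene desert regions tested, 15 were higher and 21 lower in FntbKO, together 36 or 0.845%. Over all regions 0.568% were called, 0.19% higher and 0.378% lower. Both medians of the log2 fold were -0.01. The count was 1 without FntbKO cTreg 1 and 2 without that library and WT cTreg 2 together. The 1 call kept in each leave-out was that of an Igh region given below. All others named for this comparison were lost without FntbKO cTreg 1, and several also without FntbKO cTreg 2 or a WT cTreg library.

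The desert between Pdgfra and Kit, neighbouring receptor tyrosine kinase genes, held a call in each direction. The region 158 kb from Kit, the stem cell factor receptor (chr5:75416903-75417368), had 3.63, 5.16 and 7.39 CPM in WT cTreg, 8.67, 11.2 and 8.14 in WT eTreg, 12 and 13.3 in FntbKO cTreg and 24.4 and 25.8 in FntbKO eTreg. Both FntbKO groups lay above the WT group of the same subset. The log2 fold of FntbKO over WT was 1.21 ± 0.25 (SE; adjusted p = 0.0169) in cTreg, and in eTreg it was 1.42 ± 0.23 (adjusted p = 0.00383). The region 180 kb from Pdgfra (chr5:75378605-75379039) had 15.4, 15.1 and 13.3 CPM in WT cTreg and 2.33 and 5.45 in FntbKO cTreg, which gave a log2 fold change of -1.81 ± 0.30 (SE; adjusted p = 0.00284). In eTreg it had 15.4, 8.87 and 9.50 CPM in WT and 5.01 and 4.53 in FntbKO, a log2 fold of -1.25 that did not pass the test (adjusted p = 0.0704).

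Higher levels in both FntbKO subsets were also seen beside Bcl11a and in the desert between Lrrc3b and Oxsm. The region 274 kb from Bcl11a, a zinc-finger factor of lymphoid development (chr11:24447736-24448160), had 2.51, 2.41 and 1.48 CPM in WT cTreg, 1.69, 3.39 and 1.70 in WT eTreg, 8.75 and 5.06 in FntbKO cTreg and 10.0 and 6.40 in FntbKO eTreg. No FntbKO library was as low as any WT library. In cTreg the log2 fold was 1.69 ± 0.39 (SE; adjusted p = 0.0394), and in eTreg it was 1.79 ± 0.38 (adjusted p = 0.035). A region 370 kb from Lrrc3b (chr14:15809066-15809493) had 2.06 to 2.85 CPM in WT cTreg, 2.04 to 3.59 in WT eTreg, 7.93 and 8.10 in FntbKO cTreg and 7.21 and 8.95 in FntbKO eTreg. Its log2 folds were 1.67 (SE 0.33, adjusted p = 0.0123) and 1.61 (SE 0.33, adjusted p = 0.0219).

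Of the 22 tested regions in the Lrrc3b to Oxsm desert, 18 had a positive log2 fold in cTreg and 19 in eTreg, with medians of 0.60 in both. In cTreg 4 and in eTreg 2 were called higher. Among all tested regions 0.19% and 0.181% were called higher, and the medians were -0.006 and -0.0009. The region 214 kb from Oxsm (chr14:16023829-16024375) had 7.26, 12.4 and 10.4 CPM in WT cTreg and 30.2 and 24.8 in FntbKO cTreg, which gave a log2 fold change of 1.46 ± 0.23 (SE; adjusted p = 0.00256). Oxsm encodes an enzyme of mitochondrial fatty acid synthesis. This desert too was chosen for display after its values were seen.

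**Figure D4:**
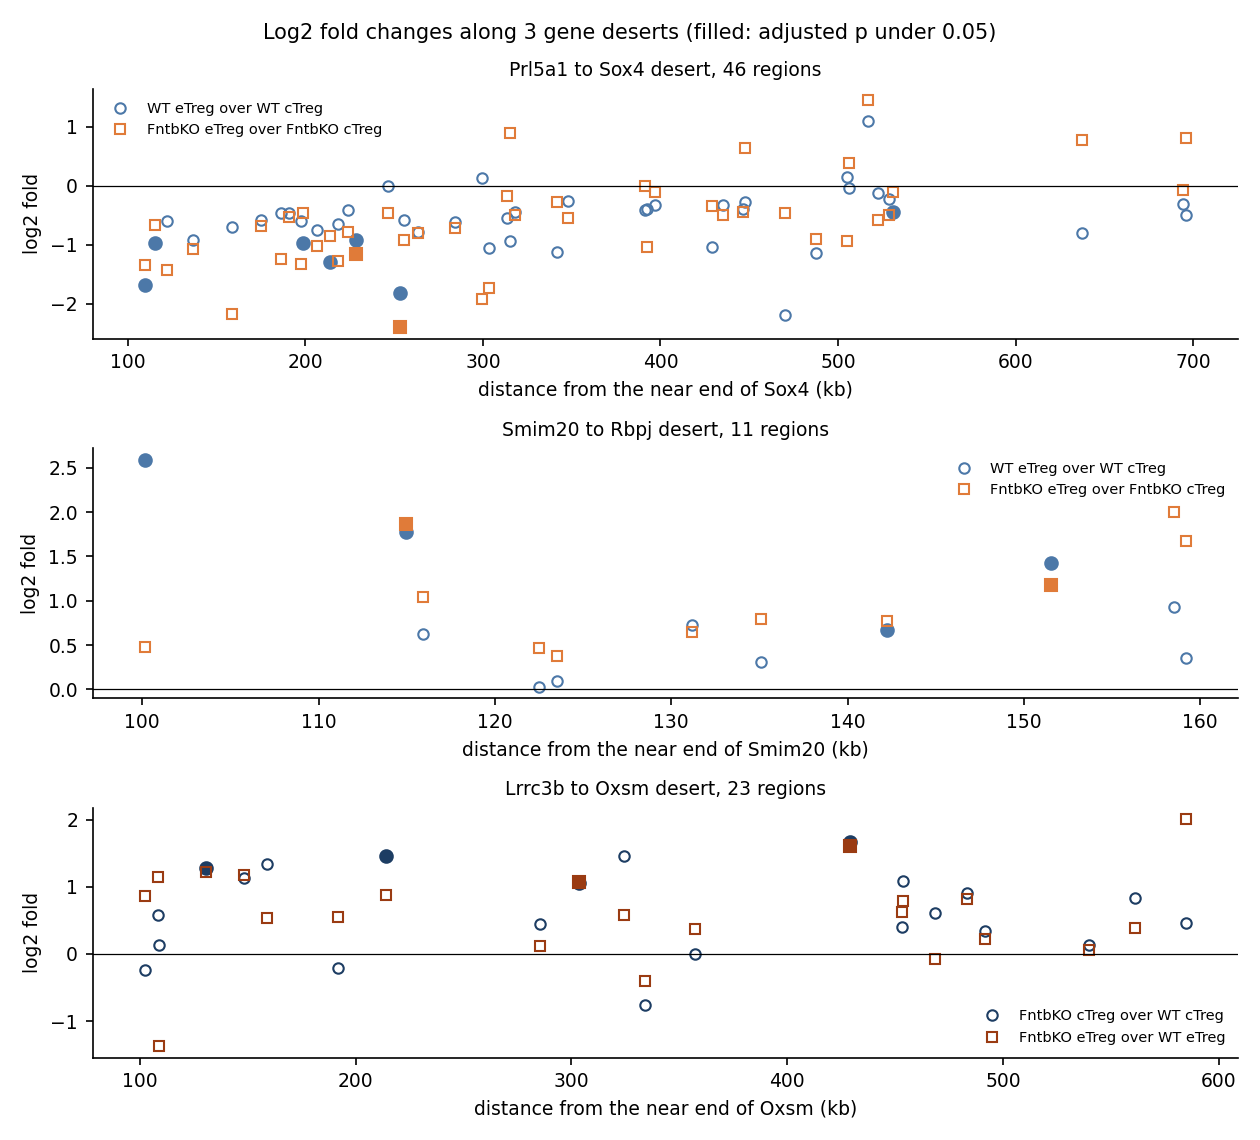
Log2 fold change of each tested region (vertical axis) by distance in kb from 1 end of 3 deserts; top and middle, eTreg over cTreg in WT (circles) and FntbKO (squares), bottom, FntbKO over WT in cTreg (circles) and eTreg (squares), filled where the adjusted p was under 0.05. Most points lie below 0 in the Sox4 desert (42 of 45 in WT), all 11 lie above 0 in the Smim20 to Rbpj desert, and most lie above 0 in the Lrrc3b to Oxsm desert (18 of 22 in cTreg).

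Falls in FntbKO cTreg included the Prep region described above (-0.94, SE 0.18, adjusted p = 0.0108), which was lower in cells without Fntb among cTreg and higher in eTreg of both genotypes. A region 120 kb from Maf, a transcription factor of interleukin-10 producing T cells (chr8:115826543-115827037), had 5.59, 4.13 and 6.55 CPM in WT cTreg, 9.64, 7.67 and 12.9 in WT eTreg, 1.64 and 1.82 in FntbKO cTreg and 2.80 and 6.79 in FntbKO eTreg. It fell by 1.65 (SE 0.38, adjusted p = 0.0415) in cTreg. Regions beside Cxcl12, a chemokine gene (-1.29, SE 0.28, adjusted p = 0.0274), and Cited2, a transcriptional coregulator (-1.23, SE 0.29, adjusted p = 0.0467), were lower too. In the desert between Sox9 and Slc39a11, a zinc transporter gene, 2 weak regions were called lower. The one 180 kb from Slc39a11 (chr11:113064675-113065029) had 6, 9.64 and 4.12 CPM in WT cTreg, 3.61, 3.79 and 3.39 in WT eTreg, 0.547 and 0.908 in FntbKO cTreg and 0.801 and 1.18 in FntbKO eTreg. Every FntbKO library was below every WT library there, and the log2 fold in cTreg was -3.05 (SE 0.47, adjusted p = 0.00135). Rises included Klf6 at 147 kb (0.94, SE 0.17, adjusted p = 0.00619) and Cdh12 at 582 kb (1.16, SE 0.25, adjusted p = 0.0238). By list, central Treg genes had none called of 106, and effector genes 0 higher and 1 lower of 307. Developmental factors had 1 and 0 of 202, and neural genes 2 and 1 of 119. Over all regions 0.19% were called higher and 0.378% lower.

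In eTreg, FntbKO and WT differed at 22 of the gene desert regions tested (0.516%), 13 higher and 9 lower in FntbKO. Over all regions 0.35% were called, 0.181% higher and 0.169% lower. The median log2 fold was 0.03, and 0.00 over all regions. No call remained without FntbKO eTreg 1 or without FntbKO eTreg 2, 4 were made without WT eTreg 1, 2 without WT eTreg 3, and 59 without WT cTreg 2 and FntbKO cTreg 1 together.

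The Rgs1 region, which rose in WT eTreg, had 10.0 and 12.6 CPM in FntbKO eTreg against 24.3, 28.1 and 25.8 in WT eTreg. It was lower in FntbKO by a log2 fold change of -1.18 ± 0.21 (SE; adjusted p = 0.00988), and within FntbKO its subset fold was 0.33 (adjusted p = 0.553). The Ccnd2 region, which fell in WT eTreg from 17.7, 15.7 and 22.6 to 10.4, 10.6 and 8.48 CPM, had 23.9 and 25.1 CPM in FntbKO cTreg and 22.6 and 22.0 in FntbKO eTreg. FntbKO eTreg was higher than WT eTreg by 1.17 (SE 0.19, adjusted p = 0.00383), and the subset fold within FntbKO was -0.14 (adjusted p = 0.798). The interaction of genotype and subset, which tests whether the subset fold differs between genotypes, did not pass for either region after adjustment (log2 -1.0, SE 0.30 for Rgs1 and 0.79, SE 0.26 for Ccnd2, each adjusted p = 1.0). Unadjusted, the p-values were 0.00255 and 0.00532.

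A region at the promoter of Gm29998, whose sequence is printed above, was lower in FntbKO eTreg. It had 44.1, 39.2 and 49.2 CPM in WT eTreg and 25.2 and 27.6 in FntbKO eTreg, against 33.8, 32.3 and 32.5 in WT cTreg and 23.3 and 28.7 in FntbKO cTreg. The log2 fold in eTreg was -0.73 (SE 0.14, adjusted p = 0.0173). Its nearest protein-coding gene was Lipo4, a lipase gene 106.5 kb away. Among the strongest falls was a region 129 kb from Cd109, a glycoprotein gene (-2.10, SE 0.40, adjusted p = 0.0181). A region 163 kb from Plk2, a polo-like kinase gene, fell by 0.77 (SE 0.16, adjusted p = 0.0409). A region 153 kb from Ets1, an ETS factor of T cells on the central list, was higher by 0.56 (SE 0.12, adjusted p = 0.0375). Apart from Ets1, the lists had 1 of 307 effector regions lower (Rgs1) and 1 of 202 developmental regions higher (Bcl11a). Over all regions 0.181% were called higher and 0.169% lower.

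The genotype comparisons in cTreg and eTreg share no library. All 15 regions higher in FntbKO cTreg had a positive log2 fold in eTreg and 5 were called there, 33.3% of the cTreg list and 38.5% of the 13 in eTreg. All 21 lower ones had a negative log2 fold in eTreg and 4 were called, 19.0% of the one list and 44.4% of the 9 in the other. Over all tested regions called in cTreg, 98.6% of the higher and 96.5% of the lower had the same sign in eTreg, and 18.6% and 24.0% were called in both.

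For the interaction, no gene desert region was called by edgeR, as for all regions (0.0%). At an unadjusted p under 0.05 there were 228 by edgeR, 175 by DESeq2 and 237 by limma-voom. Differences between the genotypes in the subset folds given above are therefore not shown.

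The immunoglobulin heavy chain locus Igh, from which B cells assemble antibody genes, made up 112 of the gene desert regions. Its summed level was 667, 730 and 640 CPM in WT cTreg, 770, 812 and 828 in WT eTreg, 502 and 494 in FntbKO cTreg and 606 and 545 in FntbKO eTreg. The means were 679 ± 45.8 (SD, n = 3), 803 ± 30.1 (n = 3), 498 ± 5.49 (n = 2) and 575 ± 43.0 (n = 2). All FntbKO libraries were below all WT libraries, and within each genotype eTreg was above cTreg. In cTreg 99 of 112 regions had a negative log2 fold of FntbKO over WT and 4 were called lower. In eTreg 94 did and 2 were called. In WT 8 were called higher in eTreg. Of all tested regions, 0.378% were called lower between the cTreg genotypes, 0.169% lower between the eTreg genotypes and 1.83% higher in WT eTreg. The median log2 fold of FntbKO over WT in Igh was -0.41 in cTreg and -0.53 in eTreg. The medians over all tested regions were -0.006 and -0.0009. Regions of B cell markers, present for 3 of 6 genes, were also lowest in FntbKO cTreg. They summed to 55.0 to 66.9 CPM in WT cTreg, 60.7 to 68.5 in WT eTreg, 44.9 to 47.6 in FntbKO cTreg and 49.5 to 59.1 in FntbKO eTreg. The CD8 T or NK and myeloid marker sums given above were likewise lower in FntbKO than in WT of the same subset. The part of these markers in the Igh result was not tested. In bulk libraries fewer cells of a type and less accessible DNA per cell cannot be told apart.

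One Igh region (chr12:114990862-114991693) was the one whose call between the genotypes in cTreg did not depend on a single library. It had 57.0, 60.9 and 43.8 CPM in WT cTreg, 57.0, 58.2 and 65.8 in WT eTreg, 25.7 and 29.3 in FntbKO cTreg and 55.3 and 46.2 in FntbKO eTreg. Both FntbKO cTreg libraries were below all others. The log2 fold of FntbKO over WT cTreg was -0.95 (SE 0.14, adjusted p = 0.00054), kept in each leave-out, and that of FntbKO eTreg over FntbKO cTreg was 0.86 (SE 0.15, adjusted p = 0.00621). Unlike the sum over the locus, its FntbKO eTreg libraries lay within the range of the WT libraries.

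The T cell receptor α locus Tcra, rearranged in T cells themselves, held 57 regions. They summed to 187, 149 and 207 CPM in WT cTreg, 137, 145 and 135 in WT eTreg, 270 and 195 in FntbKO cTreg and 166 and 142 in FntbKO eTreg. In both genotypes every eTreg library was below every cTreg library. In WT 49 of 57 regions had a negative subset fold (median log2 -0.39), and in FntbKO 51 of 57 (median -0.68). The medians over all tested regions were -0.01 and -0.004. Only 1 Tcra region was called, lower in WT eTreg, where 1.61% of all tested regions were called lower. The 2 receptor loci thus had opposite subset differences in their sums.

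**Figure D5:**
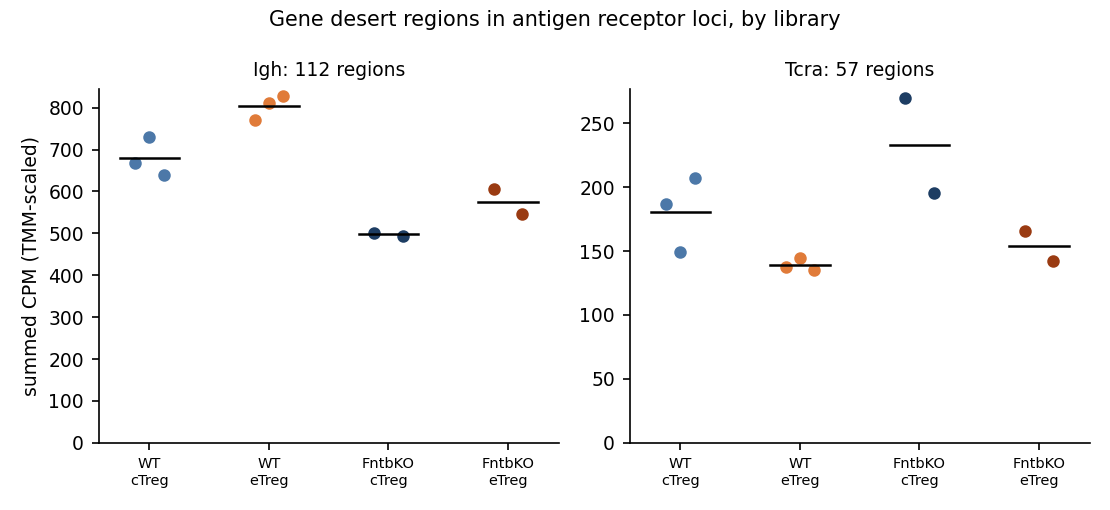
Summed TMM-scaled CPM of the gene desert regions in Igh (112 regions, left) and Tcra (57 regions, right) in each library, with group means as bars. Igh sums were 640 to 828 in the WT and 494 to 606 in the FntbKO libraries, and Tcra sums were lower in eTreg than in cTreg of both genotypes.

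Firre, an X-linked noncoding RNA gene with tandem repeats, was chosen after its values were seen as a locus of high level without calls. Its 26 regions had a median of 25.5 CPM and summed to 707, 558 and 608 CPM in WT cTreg, 790, 610 and 687 in WT eTreg, 660 and 623 in FntbKO cTreg and 790 and 715 in FntbKO eTreg. The WT groups overlapped. None was called in a pairwise comparison and 1 was called by the test for any difference. Over all long noncoding RNA genes, regions inside them (1143 tested) gave 33 higher and 26 lower calls in WT and 20 and 7 in FntbKO. The regions outside every gene (2894 tested) gave 75 higher and 80 lower calls in WT and 48 and 22 in FntbKO. Over all regions 3.44% were called in WT and 1.36% in FntbKO.

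Near Fntb itself, 25 gene desert regions lay within 2 Mb. In cTreg 2 of them were lower in FntbKO. One lay 313 kb from Fut8, a fucosyltransferase gene (chr12:77789489-77789801, 0.868 Mb from Fntb), with 9.50, 7.91 and 6.34 CPM in WT cTreg and 1.64 and 2.53 in FntbKO cTreg. Its log2 fold was -1.86 (SE 0.39, adjusted p = 0.0192). The other (chr12:77949619-77950106, nearest gene Gm6657, 1.03 Mb from Fntb) had 12.6 to 15.1 CPM in WT cTreg, 13.9 to 17.0 in WT eTreg, 6.15 and 6.87 in FntbKO cTreg and 9.02 and 6 in FntbKO eTreg. It was called in cTreg (-1.09, SE 0.23, adjusted p = 0.0221) and in eTreg (-1.05, SE 0.24, adjusted p = 0.0461). The Fut8 region was also called lower in the WT subset comparison (-1.19, adjusted p = 0.0439), in which 3 of the 25 regions were called. Between the genotypes, none of the 15 tested regions at 2 to 10 Mb was called in either subset. Of the 385 farther away on the chromosome, 5 were called in cTreg and 4 in eTreg. Over all regions 0.568% and 0.35% were called.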

How the data were processed

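ATAC-seq libraries of 4 groups of Treg cells (3, 3, 2 and 2 libraries) were compared over regions of open chromatin. The deposited table gives raw read counts per region for all 10 libraries, with 0 other sample columns. Per the submitters' processing notes, the builds were mm10 and GRCm38 and the tools MACS2 2.1.1, bedtools, SAMtools, Trimmomatic 0.36 and Picard 2.9.4. Neither the aligner nor the merging of regions is given in the sources used here. Between 66.7% and 79.2% of the counts of a library were even, as where mates are counted separately, so halved counts were an alternative. The table does not say whether coordinates start at 0 or 1, and they are printed as given.

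A region was a gene desert region if it lay on a named chromosome, more than 100 kb from both ends of every protein-coding gene span of the GRCm38.p6 table. The 53 regions on scaffolds were left out. Noncoding genes and receptor loci come from the same table. No genome sequence was at hand, so sequences are promoter windows of RefSeq, and the regions' own sequences and GC content were not analysed here.

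After TMM scaling, edgeR 4.0.16 in R 4.3.3 gave quasi-likelihood tests (filterByExpr, robust dispersions, 1 mean per group, 6 residual degrees of freedom) over 76216 regions with all 10 libraries in the fit. Called means an adjusted p under 0.05, with Benjamini-Hochberg adjustment over all of these regions. Log2-CPM used a prior count of 2. The script of the fit was tested on simulated data with known changes. No libraries were identical, and within a group the chi-square per region was 2.48 to 3.69, above counting error.

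The regions named were, per pairwise comparison, the 10 largest rises and falls (1 per nearest gene) among calls at or above the median log2-CPM of tested gene desert regions (1.75) whose groups do not overlap. To these were added the 10 smallest p of the F test, the 10 highest levels, the 10 farthest regions, the 5 deserts with most regions, and up to 4 called regions per gene list. Not all of them are printed. Regions named outside this rule are said to have been chosen after their values were seen. The members and lists were chosen with earlier results of these data known. Alternatives were other scalings, DESeq2 1.42.0, limma-voom (limma 3.58.1), filters, halved counts, a replicate block, fits of the compared groups alone, libraries left out and other distance limits. Where 1 FntbKO library was left out, its group held 1 library and the other groups gave the spread.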

Additional observations from a re-analysis of the deposited data

How the results depend on the processing

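No direction reversed among 139 named calls under any alternative. Most called regions had compared groups that do not overlap, so leaving out 1 library could hardly reverse them. The lack of reversals in those fits was thus largely set by the choice of regions. With 1 library left out, 903 of 1390 such fits kept the call and 487 lost it. Under the other alternatives 1259 of 1388 kept it and 129 lost it. Leaving out 1 library at a time gave 31 to 301 called gene desert regions for WT eTreg over WT cTreg, 1 to 207 for FntbKO eTreg over FntbKO cTreg, 1 to 54 for FntbKO over WT cTreg, 0 to 40 for FntbKO over WT eTreg, 0 to 0 for the interaction and 322 to 776 for any difference. Without WT cTreg 2 and FntbKO cTreg 1 together the counts were 348, 3, 2 and 59 in the 4 pairwise comparisons. Halved counts gave 160 for the subsets in FntbKO, 55 between the cTreg genotypes and 36 between the eTreg genotypes. Fits of the compared groups alone gave 20 in cTreg and 71 in eTreg, and limma-voom gave 14 in eTreg. The cause of these differences was not tested.

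With the replicate number as a block the counts were 339 (WT subsets), 214 (FntbKO subsets), 75 (genotypes, cTreg), 50 (genotypes, eTreg), 805 (any difference) and 0 (interaction). The labels do not say whether the numbers pair the libraries. Deviations of same-numbered WT libraries from their group means correlated at 0.0317 to 0.165, and 5 of 6 correlated best with their own number. Between the genotypes, same-numbered cTreg libraries correlated at 0.115 to 0.141 and same-numbered eTreg libraries at -0.0156 to 0.0422. Over the gene desert regions the values within WT were 0.047 to 0.174 and 6 of 6. In FntbKO, where 2 pairs force equal values, they were 0.18 over all regions and 0.198 over the gene desert regions, each 4 of 4.

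With limits of 50, 200 and 500 kb, 5%, 5.42% and 5.63% of the regions tested were called in the WT subset comparison, and 7.73% of those 100 kb from every gene of any type. Between the cTreg genotypes the share moved from 0.845% to 1.79% at 500 kb (7 of 391 regions) and 1.33% away from any gene type (5 of 375), and between the eTreg genotypes from 0.516% to 0.8% away from any gene type (3 of 375).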
